A study of Mus musculus with 3 samples.

Results

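The 40 genes described here mark 2 phases of the cell cycle in single cells of the mouse aorta-gonad-mesonephros region (AGM), the embryonic site of origin of haematopoietic stem cells. They were chosen by symbol, with no measured value in the rule, and all 40 were found among the 27998 genes of the matrix. Of these, 20 belong to S phase (Mcm2, Mcm3, Mcm4, Mcm5, Mcm6, Mcm7, Pcna, Tyms, Rrm1, Rrm2, Gins2, Cdc6, Slbp, Uhrf1, Hells, Rfc2, Prim1, Fen1, Cdc45 and Ung). The other 20 belong to G2 and mitosis, written G2/M (Cdk1, Ccnb1, Ccnb2, Ccna2, Top2a, Birc5, Cenpf, Cenpe, Mki67, Tpx2, Ube2c, Cdc20, Nusap1, Kif11, Bub1, Plk1, Hmgb2, Cks2, Aurka and Aurkb).

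The study asked how AGM cells signal to one another while haematopoietic stem cells emerge. AGM regions of E10.5 embryos with 28 to 32 somite pairs were dissected and pooled, and the sort took 3 populations, each of them 1 sample. The niche population was live and Ter119-, the endothelial population was Ter119-CD31+VCad+CD41-cKit+, and the T1-preHSC population was Ter119-CD31+VCad+CD41lowcKit+. No strain, transgene or treatment is named in the labels. Each population was run on 2 lanes of a droplet assay that counts 3' ends of transcripts by unique molecular identifiers (UMIs).

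The pooled matrix held 9492 barcodes with a median of 7544 UMIs, and its barcodes carried 8 suffixes, called libraries here. The labels give 3 populations on 2 lanes each, which does not account for 8 suffixes. No label ties a library to a population, so the matrix was treated as 1 sample, no test was run, and every interval (95%, exact Poisson or exact Clopper-Pearson) covers counting error only. Libraries 1 to 4 held mostly tissue around the aorta, libraries 5 and 6 endothelium and germ cells, and libraries 7 and 8 mostly blood, at median depths from 6548 to 15593 UMIs. Libraries shared 54 barcode sequences. After removal of low-quality barcodes and of the 5% per library most like doublets, 8915 remained, of which 6687 fell into 22 classes by at least 3 marker genes. A class name means only that its barcodes carried the markers of that list, and no cell cycle gene was a marker. Among the 10 leading genes of each class were Myog and Mylpf in myotome, Hes5 and Sox2 in neural progenitors, Dppa5a and Dppa3 in germ cells, and Spi1 and Runx1 in blood with Cdh5. The leading genes of blood with Cdh5 also held the macrophage marker Lyz2. The separation was less clean in other classes as well. The leading genes of the sympathetic class held 3 of its own markers and 3 neuron markers (Nefm, Isl1 and Nefl). Those of the nephric class held 2 markers of gut epithelium (Cldn6 and Epcam), and those of sclerotome 2 of dermomyotome (Meox1 and Meox2). The smooth muscle, gut epithelial, macrophage and megakaryocyte classes each had 1 marker of another class among them. The leading genes of the erythroid class held 1 of its own.

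A cell that prepares to divide first copies its DNA in S phase. The S genes include the Mcm subunits of the replicative helicase, with Cdc6 that loads it and Cdc45 and Gins2 that activate it, the sliding clamp Pcna, and the enzymes Rrm1, Rrm2 and Tyms that make deoxynucleotides. In G2 and mitosis the kinase Cdk1 with its cyclins Ccna2, Ccnb1 and Ccnb2 drives entry into division, Top2a untangles chromosomes, and Cdc20 and Ube2c work with the anaphase-promoting complex that ends mitosis. E2F factors are known to switch on many S genes, and the B-Myb and MuvB complex and FoxM1 many G2/M genes. Cells that leave the cycle to differentiate lose both sets and often gain the CDK inhibitors Cdkn1a (p21) and Cdkn1c (p57).

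The promoters of the S and G2/M members hold short motifs of the cell cycle in different shares. Motifs were searched on both strands in the 250 bases before the RefSeq start (build GRCm38.p6). The cell cycle homology region (CHR) was searched as TTTGAA and the CCAAT box by the letters of its name. The E2F core was searched as TTCCCGC, with its variants written TTCGCGC, further TTGCCGC, and lastly TTGGCGC. Promoters were found for 17 of 20 S genes (20 promoters) and 17 of 20 G2/M genes (17 promoters). Mcm4, Gins2, Rfc2, Ccna2, Tpx2 and Aurkb had no entry. An E2F core was present in 12 S promoters (60%) and 3 G2/M promoters (17.6%), against 7.89% of all 32817 promoters. The CHR was present in 8 G2/M promoters (47.1%) and 3 S promoters (15%), against 16.0% of all. A CCAAT box was common to both sets, in 14 S promoters (70%) and 15 G2/M promoters (88.2%), against 33.8% of all. At least 2 CCAAT boxes stood in 12 G2/M promoters (70.6%) and 7 S promoters (35%), against 10.1% of all. All 8 G2/M promoters with a CHR also held a CCAAT box. Both motifs stood together in 47.1% of G2/M promoters and 10% of S promoters, against 5.54% of all. A match is a description of the letters and shows no binding.

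Of the promoters, 6 are printed, to show both patterns and 1 member that has neither. They run 5′ to 3′ on the strand of the gene, motif letters are in capitals, and only bases outside annotated exons are shown. Mcm6 (chr1:128359706-128359955, minus strand) and Rrm2 (chr12:24708004-24708240, plus strand) stand for the S set. Mki67 (chr7:135716451-135716629, minus), Cdc20 (chr4:118437353-118437593, minus) and Top2a (chr11:99024200-99024439, minus) stand for the G2/M set. Ung (chr5:114130185-114130365, plus), an S member whose level in germ cells is described further on, held none of the motifs.
Mcm6: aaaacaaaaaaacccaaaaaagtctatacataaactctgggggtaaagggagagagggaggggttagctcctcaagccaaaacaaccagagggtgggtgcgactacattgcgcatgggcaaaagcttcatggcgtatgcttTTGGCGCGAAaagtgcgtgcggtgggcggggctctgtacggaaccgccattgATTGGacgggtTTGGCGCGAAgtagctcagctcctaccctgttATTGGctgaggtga
Rrm2: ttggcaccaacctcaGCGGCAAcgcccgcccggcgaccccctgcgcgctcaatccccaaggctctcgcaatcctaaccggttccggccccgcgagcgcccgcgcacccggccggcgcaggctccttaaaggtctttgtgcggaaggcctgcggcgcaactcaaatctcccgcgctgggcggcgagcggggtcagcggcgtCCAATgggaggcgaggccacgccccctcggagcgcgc
Mki67: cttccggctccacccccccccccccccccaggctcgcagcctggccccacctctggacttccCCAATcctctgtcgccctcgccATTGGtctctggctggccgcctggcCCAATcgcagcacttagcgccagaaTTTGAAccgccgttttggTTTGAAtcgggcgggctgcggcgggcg
Cdc20: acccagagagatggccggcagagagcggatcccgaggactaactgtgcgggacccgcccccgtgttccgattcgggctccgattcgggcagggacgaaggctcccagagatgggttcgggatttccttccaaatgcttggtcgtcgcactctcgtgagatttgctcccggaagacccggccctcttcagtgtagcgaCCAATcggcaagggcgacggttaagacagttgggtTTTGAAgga
Top2a: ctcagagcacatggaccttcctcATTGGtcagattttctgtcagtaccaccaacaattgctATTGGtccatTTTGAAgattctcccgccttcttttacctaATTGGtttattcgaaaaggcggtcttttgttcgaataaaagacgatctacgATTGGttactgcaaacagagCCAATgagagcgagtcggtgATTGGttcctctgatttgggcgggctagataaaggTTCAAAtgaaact
Ung: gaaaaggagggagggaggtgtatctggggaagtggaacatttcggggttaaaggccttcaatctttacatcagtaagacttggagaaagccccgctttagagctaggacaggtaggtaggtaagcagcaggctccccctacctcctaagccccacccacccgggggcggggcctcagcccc
In Mcm6 each of the capital runs TTGGCGCGAA holds a pair of E2F cores that overlap on opposite strands, and a CCAAT box on the opposite strand (ATTGG) stands at 2 places. Top2a carries 6 CCAAT boxes and a CHR on each strand. Mki67 carries 2 CHRs and 3 CCAAT boxes in the printed stretch. It also has an E2F core in the bases left out (67 to 61 before the start), as 1 of the 3 G2/M promoters with such a core. In Cdc20 a CHR ends 13 bases before the start and a CCAAT box ends 49 bases before it.

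Cell cycle transcripts were present in every class of the AGM and lowest in motor neurons. To compare classes of different depth, each barcode was thinned to 3000 UMIs, which left out 358 shallower barcodes (at most 52 in a named class) and kept 8557. Per thinned barcode the S members gave a mean of 6.25 UMIs and the G2/M members 13.4. Neural progenitors were highest on both lists, with 8.61 S and 19.5 G2/M UMIs, and motor neurons lowest, with 2.17 and 3.78. Sclerotome (7.19 and 16.1), germ cells (7.04 and 16.4), dermomyotome (7.35 and 14.4) and mesenchyme (6.72 and 15.6) lay close to one another. Venous-like endothelium had 5.34 and 13.3, and blood with Cdh5 had 5.14 and 9.32.

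**Figure D1:**
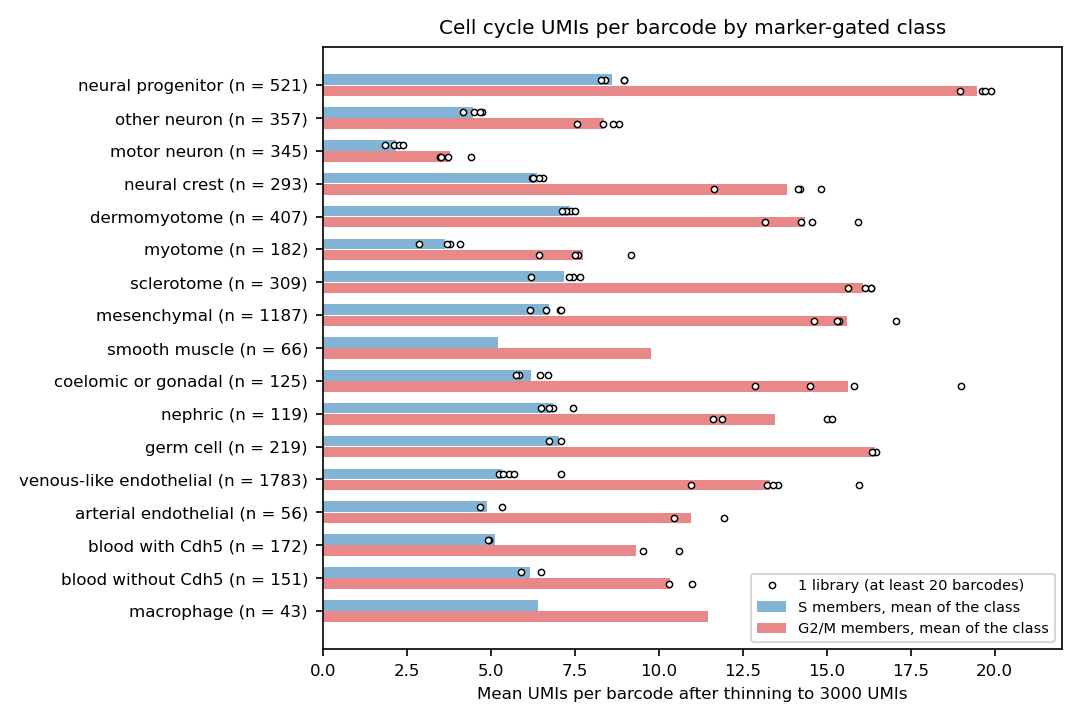
Mean S UMIs (blue bars) and G2/M UMIs (red bars) per barcode, thinned to 3000 UMIs, for 17 classes, with each library of at least 20 barcodes as an open point. Neural progenitors reach 19.5 G2/M UMIs and motor neurons 3.78, and the points of the neuron and myotome classes all lie below those of neural progenitors and dermomyotome.

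A few transcripts carried much of the G2/M sum. Hmgb2, a chromatin protein, gave 28.1% of the G2/M UMIs, Cks2, a Cdk1 subunit, 9.75%, and Ube2c 8.30%. The S sum was spread more evenly, with Rrm2 the leading gene at 10.2%. Because the G2/M list holds more UMIs than the S list, a phase rule on raw UMIs calls more barcodes G2/M-like than S-like. A barcode was called G2/M-like with at least 5 G2/M UMIs and no fewer than S UMIs, S-like with at least 5 S UMIs and more than G2/M UMIs, and low-cycle otherwise. By this rule 11.3% of the 8557 barcodes were low-cycle (6.32% before thinning), 19.9% S-like and 68.8% G2/M-like. The calls rank classes measured alike and do not by themselves count cycling cells.

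Genes outside the lists followed the calls. The 25 other G2/M genes summed to 2687 CPM (thinned UMIs scaled to the usual CPM total of each phase group) in G2/M-like barcodes, 1254 in S-like and 355 in low-cycle ones. Prc1, which bundles the spindle midzone, was at 113, 26.2 and 6.19 CPM in the same order. Cyclin E1 (Ccne1), which drives entry into S phase, was highest in S-like barcodes at 70.9 CPM, against 38.1 in G2/M-like and 13.1 in low-cycle ones. The 7 CDK inhibitors together ran the other way, at 1058 CPM in low-cycle barcodes, 258 in S-like and 231 in G2/M-like. These sums pool the classes, and 460 of the 970 low-cycle barcodes were neurons and 85 myotome. Within neurons the inhibitors summed to 796 CPM in low-cycle, 513 in S-like and 493 in G2/M-like barcodes, and within myotome to 5678, 2818 and 3049 CPM. Over the 8557 barcodes, pairs of G2/M members had a median correlation of 0.17 (190 pairs), led by Ube2c with Cenpf at 0.48. Pairs of S members had 0.062 (190 pairs) and mixed pairs -0.0086 (400 pairs). These are descriptions of sparse counts at equal depth.

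**Figure D2:**
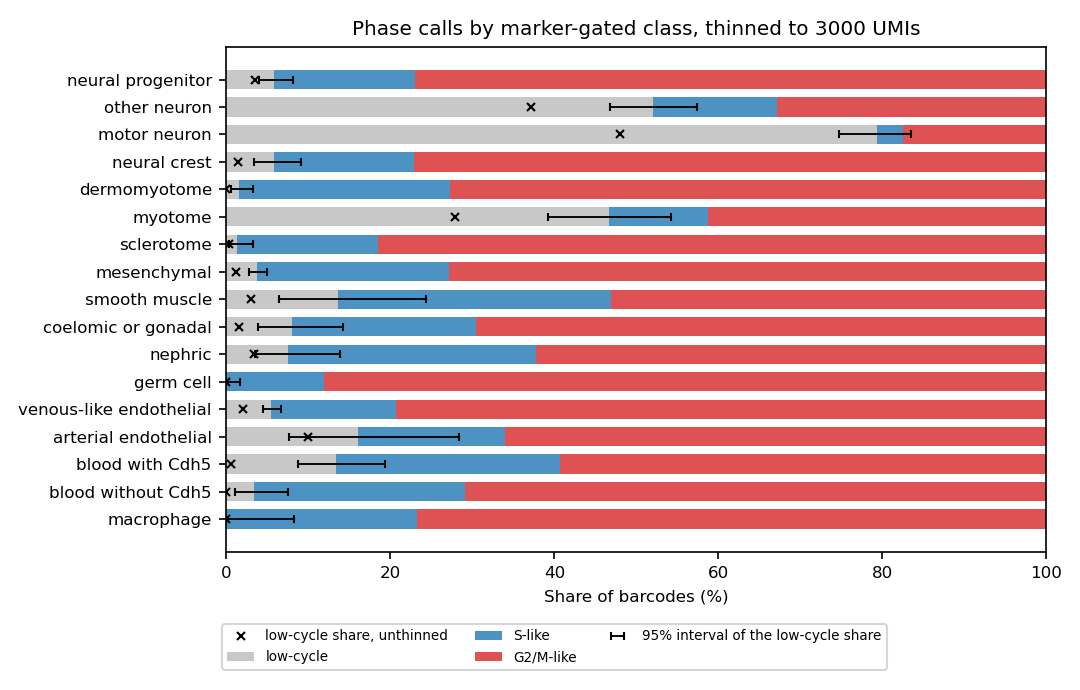
Share of barcodes (%) called low-cycle (grey), S-like (blue) and G2/M-like (red) in 17 classes after thinning to 3000 UMIs, with the 95% binomial interval of the low-cycle share as a bar and its unthinned value as a cross. Low-cycle shares are 79.4% in motor neurons and 46.7% in myotome, against 5.76% in neural progenitors and 1.47% in dermomyotome.

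A fixed list of 16 classes was ranked, with neurons as 1 class and macrophages (43 barcodes) as the smallest. Endothelium that was neither arterial nor venous-like (112 barcodes) was not on that list. Among the 16 classes, neurons were lowest for 10 S and 17 G2/M members. Neural progenitors were highest for 8 S and 12 G2/M members, and germ cells for 3 and 4. Mcm2, a helicase subunit, ran from 51.9 CPM in myotome to 109 in macrophages, and Rrm1 from 67.8 in neurons to 132 in neural progenitors. The widest ranges were those of Uhrf1 (6.89 to 155 CPM), Ung (28.0 to 465 CPM) and Gins2 (18.0 to 161 CPM), each with an end of its range in germ cells.

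**Figure D3:**
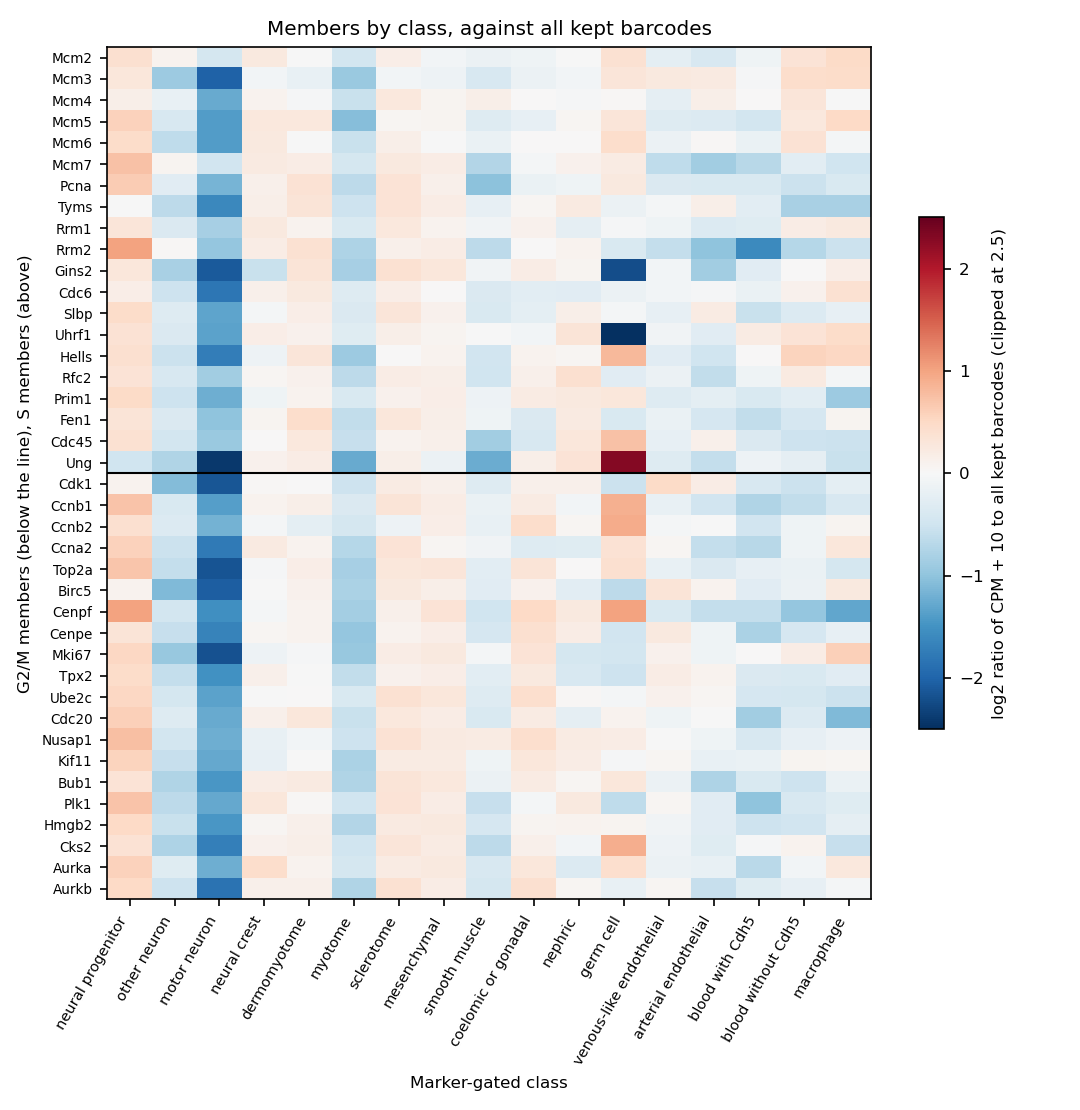
Each row is a member (S above the line, G2/M below) and each column a class. Colour gives the log2 ratio of CPM + 10 to all 8915 kept barcodes, clipped at 2.5. The motor neuron column is blue throughout and the neural progenitor column red for most members, while the germ cell column has Uhrf1 and Gins2 in dark blue and Ung in dark red.

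Neurons had lower levels of the whole G2/M set than neural progenitors. The question in this pair is how the cycle genes differ between the dividing cells of the neural tube and the neurons that arise from them. A gene was called between classes when log2 of the ratio of CPM + 10 reached 1 in size, the higher class reached 50 CPM, and the direction held in every library with at least 20 barcodes of both classes. By that rule all 20 G2/M members and 11 of 20 S members were lower in the 739 neurons than in the 538 progenitors, against 5.92% of the 3278 genes tested. No member was higher, against 6.83% of genes. All 20 G2/M and 18 S members had reached 50 CPM in 1 of the classes. The median log2 ratio was -1.52 for G2/M members and -1.16 for S members, beside -0.022 over all genes tested, and all 40 ratios were negative. The summed G2/M level was 6681 CPM in progenitors and 2194 in neurons, a log2 ratio of -1.61 (-1.64 to -1.58). The summed S level was 2892 and 1178 CPM, a log2 ratio of -1.30 (-1.34 to -1.25).

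Mki67, the gene of the Ki-67 proliferation antigen, was at 281, 217, 256 and 227 CPM in progenitors of libraries 1 to 4. In neurons of the same libraries Mki67 was at 63.1, 56.2, 35.8 and 58.1 CPM. Mki67 did not overlap between the classes, and its log2 ratio was -1.96. The share of all genes without overlap is not given, here or in the pairs below. Top2a was at 503, 510, 585 and 559 CPM in progenitors and at 171, 156, 81.8 and 132 CPM in neurons (log2 ratio -1.87), again with no overlap. Cenpf, a kinetochore protein, had 622 CPM in progenitors and 159 in neurons (-1.90). Among the G2/M members the smallest difference was in Ccnb2 (-1.10). Of the S members, Mcm3 was at 157, 144, 160 and 151 CPM in progenitors and 29.3, 48.8, 44.0 and 45.1 CPM in neurons (-1.64). Gins2, a subunit of the complex that activates the helicase, was at 148 and 42.2 CPM (-1.60). The S members not called included Mcm2 (-0.55) and Mcm4 (-0.77), both helicase subunits, and Ung (-0.86).

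The lists of other G1/S and other G2/M genes were lower in neurons as well. Of 25 other G1/S genes 18 were lower and of 25 other G2/M genes 15 were lower, with none higher in either list. Dtl, a subunit of a ubiquitin ligase of S phase, was at 53.4 against 209 CPM (-1.79), and Cdca8, a subunit of the chromosomal passenger complex, at 137 against 542 CPM (-1.91). Among 7 G1 cyclins and kinases 2 were lower, Ccnd2 (404 against 1523 CPM, log2 ratio -1.89) and Ccnd3 (74.7 against 204 CPM, -1.34). Among 7 CDK inhibitors, 2 were higher in neurons: Cdkn1c at 480 against 95.6 CPM (2.21) and Cdkn1a at 54.2 against 4.81 CPM (2.11). No gene of the 11 E2F and pocket proteins or of the 7 B-Myb, FoxM1 and MuvB genes was called, and 1 of each list had reached 50 CPM.

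Low-cycle barcodes made up 65.5% of 702 thinned neurons (61.9 to 69.0%; 42.4% unthinned) and 5.76% of 521 progenitors (3.92 to 8.12%; 3.53% unthinned). The share was 61.6 to 67.8% over libraries 1 to 4 in neurons and 3.38 to 9.28% in progenitors. The difference was 59.8 percentage points (55.4 to 63.7). Motor neurons had 79.4% low-cycle barcodes (345 barcodes; 48.0% unthinned) and the other neurons 52.1% (357 barcodes; 37.1% unthinned), with library ranges of 74.4 to 84.4% and 48 to 57.1% that did not overlap. The low-cycle share was higher the more neuron markers a barcode carried, from 33.0% of the 94 barcodes with 3 markers through 52.6% and 74% to 83.5% of the 249 barcodes with 8 or 9. The barcodes with 3 markers had a median depth of 5788.5 UMIs and a median doublet score of 0.5, and those with 8 or 9 markers 7977 UMIs and 0.633, and the part of depth in the marker counts was not tested. The 177 G2/M-like neurons had 878 CPM of Tubb3, a neuronal tubulin, and 65.9 CPM of Sox2, a progenitor factor, whereas the 460 low-cycle neurons had 2678 and 21.0 CPM. G2/M-like neurons carried a mean of 1.63 progenitor markers against 0.859, and a median doublet score of 0.633 against 0.567. The part of doublets in these calls was not tested.

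Even motor neurons were not free of these transcripts. Top2a had a UMI in 8.12% of thinned motor neurons, against 61.2% of progenitors, and Mki67 in 5.22% against 45.7% (median depths 6743 and 7286 UMIs). Motor neurons are given below beside low shares of barcodes with a UMI, as the class with the fewest of these transcripts. They are not a measured background, since 17.4% of them were G2/M-like.

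Myotome showed a smaller and less even difference from dermomyotome. The dermomyotome is the dividing layer of the somite that feeds the myotome, whose cells become muscle. All 40 ratios were negative, but only 7 S members (Ung, Mcm5, Hells, Gins2, Rrm2, Fen1 and Pcna) and 1 G2/M member (Cenpe, a kinetochore motor) were called lower in the 190 myotome barcodes than in the 409 dermomyotome ones. None was higher. The background was 1.99% lower and 8.11% higher of 3008 genes, and 18 members of each list had reached 50 CPM. Median log2 ratios were -0.75 for S and -0.78 for G2/M members, beside -0.082 over all genes tested. The summed S level was 1288 CPM in myotome and 2427 in dermomyotome (log2 ratio -0.91), and the G2/M level 2858 and 4959 CPM (-0.79). The number called depended on settings, from 3 with doublets kept to 15 with at least 4 markers, and was 13 without library 1.

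Mcm5 was at 142, 138, 129 and 134 CPM in dermomyotome of libraries 1 to 4 and at 30.7, 33.1, 68.0 and 62.1 CPM in myotome. Its classes did not overlap, although the myotome values fell into a lower and a higher pair (log2 ratio -1.33). Ung, the uracil-DNA glycosylase that removes uracil from DNA, was at 80.0, 111, 101 and 112 CPM in dermomyotome and 19.2, 33.1, 43.2 and 33.1 CPM in myotome (-1.45). Pcna was at 91.7, 97.3, 91.0 and 110 CPM in dermomyotome and 40.2, 49.6, 43.2 and 41.4 CPM in myotome (-1.03). Top2a lay just under the call (178 against 366 CPM), and Cenpe just over it (64.3 against 144 CPM, -1.05). In library 1 the Cenpe ratio was -0.58, and in libraries 2 to 4 it was -1.93, -1.06 and -1.03.

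Of the 7 CDK inhibitors 2 were called, Cdkn1a and Cdkn1c, both higher in myotome and with larger ratios than any member in this pair. The median over the 7 was 0.031. Cdkn1a was at 35.2, 19.7, 16.1 and 15.9 CPM in dermomyotome of libraries 1 to 4 and at 1668, 1606, 1557 and 1521 CPM in myotome, a log2 ratio of 5.68. Cdkn1c was at 140, 122, 70.2 and 95.1 CPM in dermomyotome and at 3009, 2370, 1924 and 1667 CPM in myotome, a log2 ratio of 4.30. Among the G1 cyclins, Ccnd2 (-1.54) and Ccnd1 (-1.23) were lower in myotome, whereas Ccnd3 was higher (488 against 207 CPM, 1.20). Of 25 other G1/S genes 8 were lower, led by Exo1 (-1.29) and Gmnn, the geminin that blocks helicase loading (-1.19). None of the 25 other G2/M genes was called.

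Low-cycle barcodes made up 46.7% of 182 myotome barcodes (39.3 to 54.2%; 27.9% unthinned) and 1.47% of 407 dermomyotome barcodes (0.543 to 3.18%; 0 unthinned). Library ranges were 43.6 to 52.4% and 0 to 2.63%. With 3 myotome markers 8.70% of 23 barcodes were low-cycle, with 4 or 5 markers 26% of 50, with 6 or 7 markers 60.8% of 74, and with 8 or more 71.4% of 35. The highest low-cycle share thus stood in the barcodes with the most muscle markers. Median depth was 8012, 8699.5, 7134 and 9498 UMIs in the same order. The G2/M-like myotome barcodes carried more dermomyotome markers (mean 1.49) than the low-cycle ones (0.447), at the same median doublet score of 0.667. The part of doublets in these calls was not tested.

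**Figure D4:**
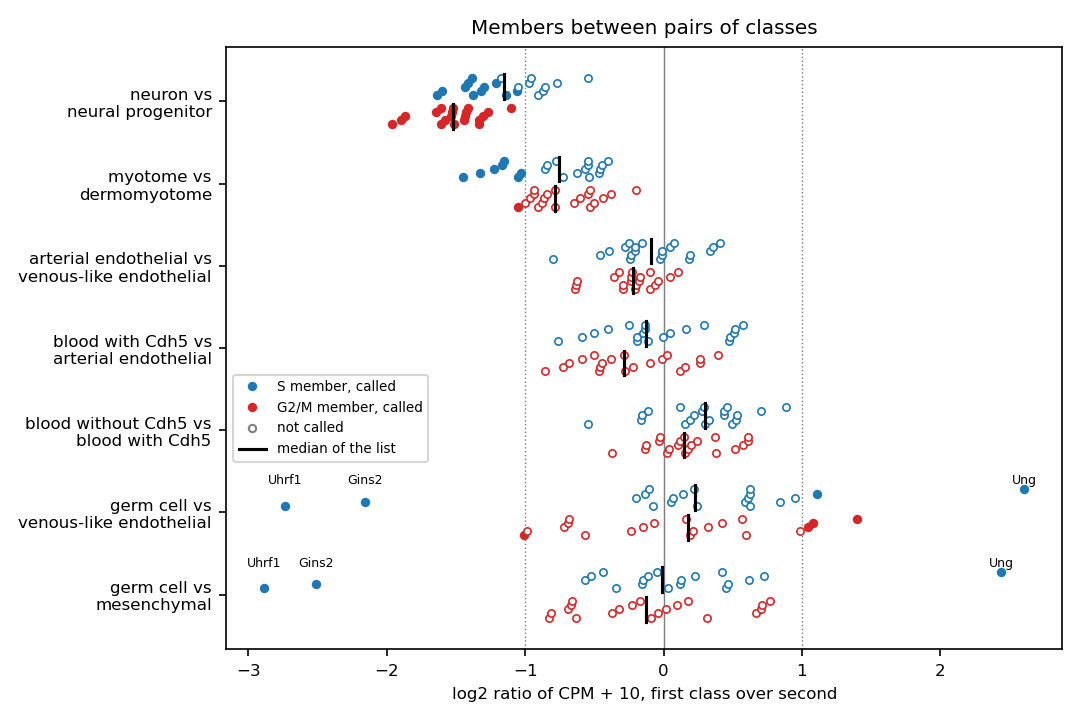
The log2 ratio of CPM + 10 for each S member (blue) and G2/M member (red) in 7 pairs of classes, filled where called, with list medians as black bars and dotted lines at -1 and 1. Neurons have both medians below -1, endothelial and blood pairs have no filled point, and germ cells have Uhrf1 and Gins2 far to the left and Ung far to the right.

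No member was called in the arterial, venous-like, blood and macrophage pairs. Low-cycle shares, pooled over libraries, differed beyond counting error in 2 of them. Arterial endothelium is the tissue from which blood arises, and the question here is whether the cycle genes change along that path. In arterial against venous-like endothelium (60 and 1835 barcodes) 0 of 40 members were called, against a background of 2.61% higher and 0.733% lower, so the count lies near the background. The summed levels were 1668 against 1776 CPM for S and 3992 against 4611 CPM for G2/M (log2 ratios -0.091 and -0.21). G2/M members were lower in arterial cells in 18 of 20 cases, with a median of -0.22 beside 0.054 over all genes tested. The summed G2/M ratio was -0.14 with at least 2 markers for every class and -0.048 with arterial cells taken by at least 3 arterial markers, the latter a choice added after the data were seen. Gins2 had the largest difference (61.7 against 115 CPM, -0.80), then Bub1, a spindle checkpoint kinase (-0.64), and Ccna2 (-0.63). Low-cycle barcodes made up 16.1% of 56 arterial barcodes (7.62 to 28.3%; 10% unthinned) and 5.44% of 1783 venous-like ones (4.43 to 6.60%; 2.02% unthinned). The difference was 10.6 points (2.10 to 22.9), and 19.7 points without library 5. Thinning was 1 random draw, and part of the barcodes were drawn anew when a library was left out. The part of the draw in the change to 19.7 was not measured. The low-cycle share was 10.3% in arterial and 5.34% in venous-like cells of library 5. In library 6 it was 13.6% and 5.19%. The arterial class had 29 and 22 thinned barcodes in these libraries. Both arterial shares lay below the pooled 16.1%, and no interval was taken within libraries. Libraries 1 to 4 held only 1, 1, 1 and 2 arterial barcodes, which also entered the pooled share. In libraries 1 to 3, with 23 to 37 thinned venous-like barcodes each and almost no arterial ones, the venous-like share ran from 0 to 13.0%. Outside the members, the cyclin Ccnd2 was lower in arterial cells (114 against 266 CPM, -1.16). Cdkn1a was higher (94.9 against 23.7 CPM, 1.64), but unevenly, with ratios of 0.45 in library 5 and 2.37 in library 6.

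Blood with Cdh5, the endothelial cadherin that a newly formed blood cell still carries, was set against arterial endothelium (173 and 60 barcodes). The pair lies in different libraries, with 51 and 75 of the blood barcodes in libraries 7 and 8 and 32 and 23 of the arterial ones in libraries 5 and 6, so class and library fall together in libraries 7 and 8. Library 5 held 20 blood barcodes and library 6 held 18, of which only library 5 reached the 20 barcodes of both classes that the call rule checks. No member was called (17 of each list had reached 50 CPM), against 6.24% of genes higher and 15.7% lower. The summed S levels were 1622 and 1668 CPM (log2 ratio -0.040, -0.16 to 0.078) and the G2/M levels 3426 and 3992 CPM (-0.22, -0.30 to -0.14). With the total taken without mitochondrial, ribosomal protein and globin genes, the S ratio was 0.15 and the G2/M ratio -0.030. With arterial cells taken by at least 3 arterial markers, a choice added after the data were seen, 3 G2/M members were lower in the blood class (Cdk1, Cenpe and Plk1) and the summed G2/M ratio was -0.38. Low-cycle shares were 13.4% (172 barcodes; 8.67 to 19.4%; 0.578% unthinned) and 16.1%, a difference of -2.70 points (-15.8 to 7.67). Of 7 G1 cyclins and kinases 2 were called. Ccnd1 was at 13.8 CPM in the blood class and 204 in arterial cells (-3.17, and -3.33 in library 5), and Ccnd2 at 419 and 114 CPM (1.79, and 2.46 in library 5). Usp1, a deubiquitinase of DNA repair, was higher in the blood class (133 against 23.7 CPM, 2.08) and Cdkn1a lower (5.45 against 94.9 CPM, -2.76). Within library 5 these ratios were smaller, at 0.86 for Usp1 and -0.77 for Cdkn1a, and would not reach the size of 1 that a call needs.

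The S members were higher in sum in blood without Cdh5 than in blood with Cdh5, also within libraries 7 and 8. No single member was called in this pair (151 and 173 barcodes), against 1.9% of genes higher and 2.73% lower, which is again near the background. Over all libraries the summed S level was 2049 against 1622 CPM (log2 ratio 0.34, 0.27 to 0.40). Of 20 S members 16 had a positive ratio, with a median of 0.30 beside 0.0021 over all genes tested. Within libraries 7 and 8 the summed S ratio was 0.31 and 0.42. The 25 other G1/S genes had a median of only 0.045, with 14 positive and 11 negative. Their medians were -0.0092 and 0.14 in libraries 7 and 8. The S-like share was 25.8% without Cdh5 and 27.3% with it, a difference of -1.50 points (-11.5 to 8.62). Rrm2, the ribonucleotide reductase subunit, was at 142 and 117 CPM in blood without Cdh5 of libraries 7 and 8, and at 80.5 and 51.1 CPM in blood with Cdh5 (0.88). Mcm5 was at 119 and 145 CPM against 75.5 and 74.1 CPM (0.71). For both genes, named for the largest S ratios of the pair, the classes did not overlap in the 2 libraries. The G2/M level was 3681 against 3426 CPM (0.10), led by Plk1 and Aurka, the polo and Aurora A kinases (both 0.61). The Plk1 ratio was 1.07 in library 7 and 0.14 in library 8, and the Aurka ratio 0.45 and 0.57. Low-cycle barcodes made up 3.31% of blood without Cdh5 (151 barcodes; 1.08 to 7.56%; 0 unthinned) and 13.4% with it, a difference of -10.1 points (-16.5 to -3.72). With doublets kept that difference was -3.62, and without library 6 it was -5.64. Both alternatives drew part of the barcodes anew in the thinning, and the part of the draw was not measured. Library ranges were 1.61 to 2.44% and 8 to 15.7%. Cdkn1c was at 36.5 and 45.2 CPM without Cdh5 and at 202 and 262 CPM with it in libraries 7 and 8 (-2.34). Cdk6, a G1 kinase, was higher without Cdh5 (110 against 44.9 CPM, 1.13).

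Small classes gave only rough values. Macrophages (43 barcodes) had no low-cycle barcode, which allows a share of up to 8.22%, and summed levels of 2055 CPM for S and 3870 for G2/M. Against blood without Cdh5 no member was called (background 9.22% higher and 4.12% lower), and no library had 20 barcodes of both. Cdc20 (68.4 against 122 CPM, -0.75) and Fen1, a flap nuclease (86.5 against 59.4 CPM, 0.48), were among the largest differences. Dut, which removes dUTP, was lower (-1.24) and Ccnd1 higher (2.21). Megakaryocytes had 48.1% low-cycle barcodes (27 barcodes; 28.7 to 68.1%; 46.7% unthinned) and 970 CPM of S and 2229 CPM of G2/M members. Only 8 barcodes fell into the sympathetic class, whose leading genes include neuron markers as given above, of which 5 were low-cycle (24.5 to 91.5%). Against 296 neural crest barcodes, 10 S and 15 G2/M members were lower (background 12.3%), with summed levels of 999 against 2229 CPM for S and 1846 against 4792 CPM for G2/M. Cdc20 and Fen1 had 0 UMIs in the sympathetic class, where 3 UMIs would be 37.9 CPM.

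Germ cells had summed levels near those of mesenchyme but differed sharply in a few single S genes. Primordial germ cells pass through the AGM on their way to the gonad. Their 223 barcodes had summed levels of 2414 CPM for S and 5478 CPM for G2/M, beside 2256 and 5436 CPM in mesenchyme (1207 barcodes) and 1776 and 4611 CPM in venous-like endothelium. None of 219 thinned germ cells was low-cycle, which allows a share of up to 1.67%. The value was 0 in both library 5 and library 6. S-like barcodes made up 11.9% and G2/M-like 88.1% (83.1 to 92.1%; 92.4% unthinned), against 79.4% G2/M-like in venous-like endothelium, a difference of 8.77 points (3.40 to 13.2). When each list's UMIs were divided by the list's mean, an alternative added after the data were seen, that difference was -2.52 points, so the excess of G2/M-like calls depends on how the lists are weighed. Against mesenchyme the low-cycle share differed by -3.71 points (-4.94 to -1.76).

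Ung, Uhrf1 and Gins2 stood apart in germ cells. Against mesenchyme Ung was the only member of 40 called higher, and Uhrf1 and Gins2 were the only ones lower. The background was 8.64% higher and 20.3% lower, so both counts lie under it. No library held 20 barcodes of both classes. Germ cells were therefore also compared with venous-like endothelium, which shares libraries 5 and 6, as a pair added after the data were seen. There Ung and Hells were higher and Uhrf1 and Gins2 lower among the S members, and Cenpf, Ccnb1 and Cks2 higher and Cdk1 lower among the G2/M members (background 9.59% higher and 23.8% lower of 3213 genes). The count of members higher lies near its background, and the count lower lies under it. The S median was 0.23 and the G2/M median 0.18, beside -0.16 over all genes tested.

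Ung was at 454 and 455 CPM in germ cells of libraries 5 and 6 and at 71.9 and 64.8 CPM in venous-like endothelium, a log2 ratio of 2.60. The next class by level, nephric, had 113 CPM. A Ung UMI was found in 71.2% of thinned germ cells, 18.0% of venous-like cells and 2.61% of motor neurons (median depths 8211, 7851 and 6743 UMIs). Its promoter, printed above, held none of the motifs searched, and neither did those of Tyms, Birc5 and Nusap1.

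Uhrf1, which brings the maintenance DNA methyltransferase to newly copied DNA, had 13 UMIs in all germ cells (6.89 CPM, 3.67 to 11.8). It had 3 UMIs in library 5 and 10 in library 6 (3.85 and 10.8 CPM), against 97.0 and 106 CPM in venous-like endothelium (log2 ratio -2.74). Thinned barcodes with a Uhrf1 UMI were 2.28% in germ cells, 24.4% in venous-like endothelium and 7.54% in motor neurons. Gins2 was at 16.7 and 18.3 CPM in germ cells and 111 and 116 CPM in venous-like endothelium (-2.16), and a Gins2 UMI was found in 6.85%, 28.4% and 5.22% of the same classes. The germ cell share was below that of motor neurons for Uhrf1 and near it for Gins2. Nearly all motor neurons lie in libraries 1 to 4 and most germ cells in libraries 5 and 6. For neither gene did the classes overlap in libraries 5 and 6.

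Among the mitotic members, Cenpf was at 644 and 612 CPM in germ cells of libraries 5 and 6 and 228 and 235 CPM in venous-like endothelium (1.39). Ccnb1 was at 242 and 219 against 98.5 and 111 CPM (1.08), and Cks2 at 878 and 859 against 405 and 414 CPM (1.04). Cdk1, the partner kinase of both, ran the other way at 108 against 226 CPM (-1.01). Hells, a chromatin remodeller of the SNF2 family, was at 172 and 162 against 74.8 and 76.5 CPM (1.11). Mki67 was not called (118 against 179 CPM, -0.57). With the total taken without mitochondrial, ribosomal protein and globin genes, 8 members were higher in place of 5.

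Few regulators of the cycle reached the 50 CPM of the rule in the comparison with venous-like endothelium. Of the 5 G1 cyclins and kinases that did (of 7), 2 were lower. The only such CDK inhibitor (of 7) and the only such E2F or pocket gene (of 11) were lower as well. Of the 2 such B-Myb, FoxM1 and MuvB genes (of 7), 1 was higher. The background was 9.59% higher and 23.8% lower of genes tested. Mybl2, the gene of B-Myb, was at 191 and 173 CPM in libraries 5 and 6 and 33.3 and 36.1 CPM in venous-like endothelium (2.11). Ccnd1 had 4 and 1 UMIs in these libraries (5.13 and 1.08 CPM) against 269 and 260 CPM (-4.35), and Ccnd2 was at 27.5 against 266 CPM (-2.88). Cdkn1c was at 3.18 against 63.3 CPM (-2.48). E2f4, an E2F factor that represses in resting cells, was at 20.7 against 71.0 CPM (-1.40). Of the 25 other G1/S genes only Rad51ap1 was called (-1.07), and of the 25 other G2/M genes only Ckap2l (-1.11), both lower. Against mesenchyme Mybl2 was again higher (2.49) and Ccnd2 (-4.07), Ccnd1 (-3.15), Cdkn1c (-3.22) and Cdk4 (-1.21) lower.

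**Figure D5:**
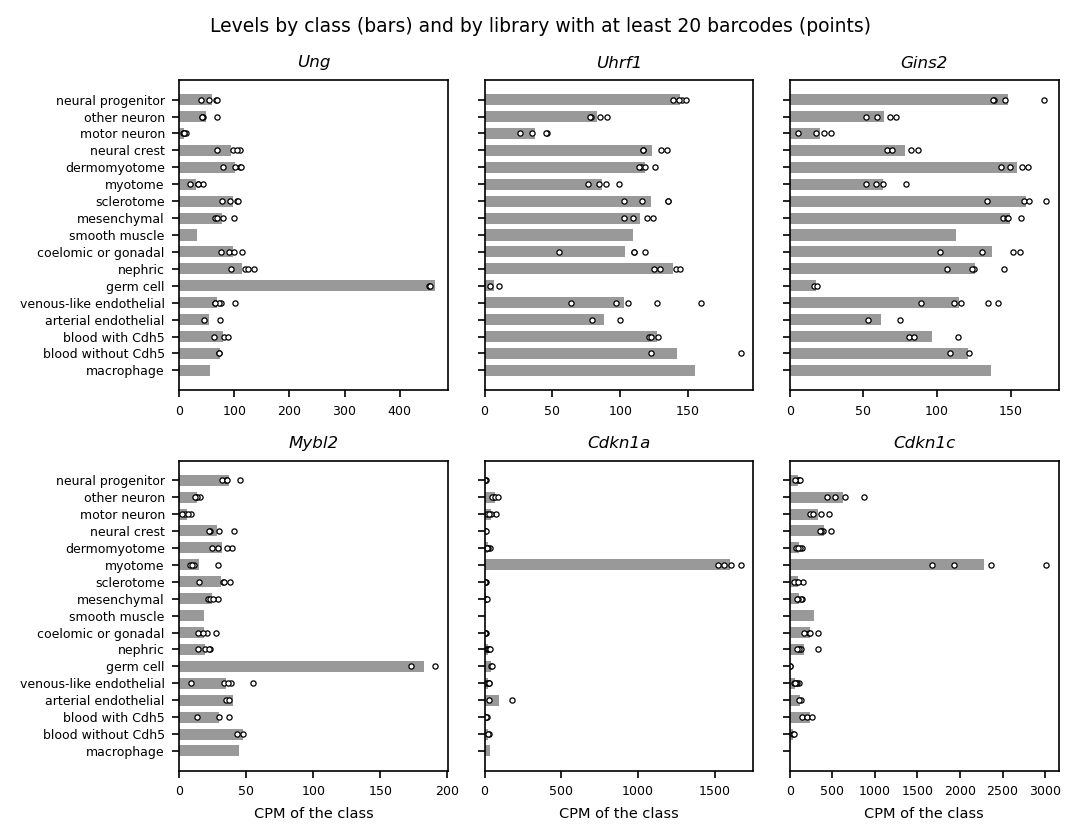
Levels in CPM of Ung, Uhrf1, Gins2, Mybl2, Cdkn1a and Cdkn1c in 17 classes (grey bars) and in each library with at least 20 barcodes (open points). Ung (465 CPM) and Mybl2 (183 CPM) peak in germ cells, where Uhrf1 (6.89 CPM), Gins2 (18.0 CPM) and Cdkn1c (3.18 CPM) are lowest or nearly so, and Cdkn1a (1599 CPM) and Cdkn1c (2280 CPM) peak in myotome.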

How the data were processed

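The authors deposited raw UMI counts in 1 pooled matrix without normalisation, made with Cell Ranger (version not given) on mm10, per the submitters' processing notes. The deposited lists of genes and barcodes carry no unit. The 8 barcode suffixes were used as libraries, and no suffix was assigned to a sorted population. A barcode needed 1000 UMIs, 500 genes and a mitochondrial share of no more than 10%, which 9383 met. Doublets were scored in each library against 2 simulated doublets per barcode (2000 variable genes, 30 components, 30 neighbours), and the top 5% were removed (468). The labels put the doublet rate under 5%.

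A barcode joined the class with the largest share of its marker list detected, with at least 3 markers (21 lists, 177 markers). Blood took priority over endothelium and was split by 1 UMI of Cdh5. Endothelium was split into arterial and venous-like by at least 2 markers, and neurons by at least 2 motor neuron markers. Ties (27 barcodes) and ungated barcodes (2201) entered no comparison. Phases were called after thinning to 3000 UMIs in 1 random draw. Alternatives that changed the set of barcodes drew part of them anew, and the spread of the draw was not measured. Levels by phase call came from thinned sums, scaled to the total of each phase group. All other levels came from unthinned sums, scaled to the total of the class. The members, lists and comparisons were chosen with earlier results of these data known.

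Named genes were, per pair, the 2 S and 2 G2/M members with the largest ratio among those at 50 CPM or more, 6 standard members (Mcm5, Pcna, Top2a, Mki67, Ccnb1 and Cdc20), and up to 4 called genes of each other list. Other members named were chosen after their values were seen. Summed levels are compared as log2 ratios without the added 10 CPM. Promoters came from a RefSeq table (GRCm38.p6). The rule for calls was tested on simulated data. Intervals cover counting error only. Analyses used Python 3.11.15, numpy 2.4.6, scipy 1.17.1, pandas 2.3.3, scikit-learn 1.9.0, scanpy 1.11.5 and matplotlib 3.10.9.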

Additional observations from a re-analysis of the deposited data

How the results depend on the processing

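No paired analysis was possible because each sorted population has 1 sample. Classes were set side by side within libraries, whose ratios stand beside the results. Over all alternatives, 620 recomputed main values stayed close (for a count within 1.5 times, for a value within its counting interval). Where that interval spanned 0, a close value could change sign. The low-cycle difference of blood with Cdh5 against arterial cells ran from -12.5 points without library 3 to 1.45 without library 8. Library 3 held 1 arterial barcode and 2 of blood with Cdh5, and without it part of the thinning was drawn anew. The 73 main values that moved follow, and the cause was not tested. The difference in low-cycle share between neurons and neural progenitors (59.8 points) was 54.1 with doublets kept, 53.9 and 64.4 with minimums of 4 and 7 phase UMIs, 64.0 with scanpy scores, 64.6 without Hmgb2, Slbp, Ung and Cks2, 52.7 when thinned to 2000 UMIs, and 65.0 with at least 4 markers. For myotome against dermomyotome (45.2 points) it was 53.0 with a minimum of 7 and 54.1 with scanpy scores. For germ cells against mesenchyme it was -8.02 and -6.21 under those settings, and against venous-like endothelium -12.0 and -11.2, with -3.14 at a minimum of 4 and -8.05 without the 4 genes. For blood without against with Cdh5 it was -3.62 with doublets kept. The difference in G2/M-like share between germ cells and venous-like endothelium turned from 8.77 to -2.52 points with lists divided by their means.

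The summed log2 ratios for neurons were -1.45 (G2/M) and -1.19 (S) with doublets kept, -1.78 and -1.39 with at least 4 markers, -1.51 and -1.22 with at least 2, and -1.65 and -1.34 with the total without mitochondrial, ribosomal protein and globin genes. For myotome S was -0.80 with doublets kept and -0.82 with at least 2 markers, and G2/M -0.67 with at least 2 and -1.01 with at least 4. For germ cells against mesenchyme G2/M was -0.088 and S 0.14 with at least 4 markers, G2/M 0.069 with at least 2, and 0.20 and 0.29 with the reduced total, under which the ratios against venous-like endothelium were 0.43 (G2/M) and 0.62 (S). The same total gave -0.030 (G2/M) and 0.15 (S) for blood with Cdh5 against arterial cells and -0.0070 for G2/M of macrophages. With at least 2 markers G2/M was -0.14 for arterial against venous-like cells and -0.70 for sympathetic cells. With arterial cells taken by at least 3 arterial markers, added after the data were seen, G2/M was -0.048 against venous-like cells and -0.38 for blood with Cdh5, and 3 members (Cdk1, Cenpe and Plk1) were lower in the latter pair.

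Members lower in myotome (8) numbered 3 with doublets kept, 15 with at least 4 markers, 5 with at least 2 and 5 with TMM scaling. Cenpe was -0.99 with TMM, -0.86 with doublets kept and -0.82 with at least 2 markers. Members lower in sympathetic cells (25) numbered 13 with at least 2 markers, and members higher in germ cells than in venous-like cells (5) numbered 8 with the reduced total. Leaving out each library in turn gave 7 to 13 members lower in myotome (13 without library 1), 0 to 2 lower in arterial than venous-like cells (Gins2 and Bub1, without library 5), 0 to 2 lower in blood with Cdh5 than arterial cells (Cdc20 and Plk1, without library 8), 0 to 1 lower in macrophages (Cdc20, without library 4), and 0 to 1 higher in blood without Cdh5 (Plk1, without library 8). Summed G2/M ratios ran from -1.64 to -1.54 (neurons), -0.92 to -0.72 (myotome), -0.28 to -0.17 (arterial), -0.38 to -0.15 (blood with Cdh5 against arterial), 0.086 to 0.20 (blood without Cdh5), -0.038 to 0.15 (macrophages), -2.47 to -0.92 (sympathetic, without libraries 4 and 2), -0.013 to 0.079 (germ cells against mesenchyme) and 0.22 to 0.27 (against venous-like cells). Summed S ratios ran from -1.36 to -1.26 (neurons), -0.10 to 0.098 (blood with Cdh5 against arterial), 0.25 to 0.36 (blood without Cdh5), 0.064 to 0.17 (germ cells against mesenchyme) and 0.42 to 0.51 (against venous-like cells). TMM scaling divided the level of the first class by a factor, so a negative log2 factor raised the ratios and a positive one lowered them. The log2 factor was over 0.1 in size in 4 pairs. It was -0.16 for blood with Cdh5 against arterial cells and 0.13 for arterial against venous-like cells. For sympathetic cells it was 0.34, and for germ cells against mesenchyme -0.19. Depth limits Uhrf1 and Ccnd1 in germ cells, where single libraries held 1 to 10 UMIs.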

Other observations

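Partners of Ung, Uhrf1 and Gins2 were looked up in germ cells after the values of these 3 genes had been seen, so their levels are a description. Of the other subunits of the GINS complex, which with Gins2 activates the replicative helicase, only Gins4 reached the 50 CPM of the rule against venous-like endothelium, and it was not called (77.9 against 63.3 CPM). Gins1 was at 41.9 against 35.2 CPM and Gins3 at 9.54 against 16.5 CPM, too low for the rule. Of the DNA methyltransferases, the maintenance enzyme Dnmt1, with which Uhrf1 works, was at 114 against 109 CPM. The de novo enzyme Dnmt3a was lower at 21.2 against 60.3 CPM (log2 ratio -1.17; -1.21 and -1.17 in libraries 5 and 6), and Dnmt3b had 1 UMI in all germ cells (0.53 CPM, up to 2.95), against 18.6 CPM. Against mesenchyme Dnmt3a was lower as well (-1.71).

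Of the other DNA glycosylases, Tdg, Smug1 and Mbd4 were looked up, and none was higher in germ cells. Tdg, which removes thymine and oxidised methylcytosine, was at 33.4 against 71.2 CPM (-0.90) in venous-like endothelium and was called lower against mesenchyme (-1.27). Smug1 was at 6.36 against 6.84 CPM and Mbd4 at 7.42 against 10.8 CPM, too low for the rule. Downstream in the pathway, Apex1 was at 330 against 227 CPM (0.52) and Xrcc1 at 95.4 against 44.9 CPM (0.94), with similar ratios in libraries 5 and 6 for Xrcc1 (0.96 and 0.95). Neither was called.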
